A study of Mus musculus with 9 samples.

Results

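The genes described here are 33 glycolysis and hypoxia genes, chosen by symbol: 19 that carry out or steer glycolysis, from glucose uptake to lactate export, and 14 that act in the response to low oxygen or are induced by it. Of these, 31 had at least 1 probe-set (a group of short probes against 1 transcript) matched to them alone, 17 of the glycolysis genes with 39 probe-sets and 14 of the hypoxia genes with 29 probe-sets, out of 45101 probe-sets and 18194 named genes on the array. Gpi1 and Eno1 had no probe-set named for them here and were not analysed. Another 4 probe-sets matched Gapdh or Hk1 together with other genes and were left out.

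RNA came from primary mouse embryo fibroblasts (MEFs), which have a limited life-span in culture and slow down with passage. The MEFs were taken from 13.5 day embryos of mixed C57BL/6J x 129Sv/J background, were kept in DMEM with 10% fetal bovine serum on a 3T3 schedule, in which cells are trypsinized, counted and re-plated at a fixed density at regular intervals, and received no treatment. There were 3 groups with 3 independent cultures each, wild type at passage 3 (P3), wild type at passage 5 (P5) and Tgif1 -/- at passage 3 (Tgif1 null). The Tgif1 protein binds DNA through a homeodomain and represses genes, among them targets of TGFβ signaling, and the arrays addressed whether its loss makes P3 cells resemble wild type cells of later passage.

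Glycolysis splits glucose into pyruvate in the cytoplasm, and pyruvate is then reduced to lactate, or enters mitochondria, where pyruvate dehydrogenase turns it into acetyl-CoA. In low oxygen the α subunits of the hypoxia-inducible factors, encoded by Hif1a and Epas1, escape hydroxylation by the Egln enzymes, are spared from degradation, pair with Arnt and bind DNA at the core letters ACGTG or GCGTG. Many of the genes they switch on encode glucose transporters and glycolytic enzymes, and others act on blood vessels, collagen and mitochondria. The oxygen sensor works on the proteins, so the level of Hif1a mRNA is no measure of Hif activity.

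Promoters of 31 of the 33 genes were found in a RefSeq table (mouse assembly GRCm38.p6; 250 bases before to 50 after each start). Those printed belong to genes whose signals carry the results below. Between wild type P5 and P3, Pdk1, Bnip3, Ankrd37 and P4ha2 rose, Egln3 fell, and Ldha did not pass the test. They read 5′ to 3′ on the strand of the gene, and capitals mark ACGTG or GCGTG on either strand (CACGT or CACGC where it lies on the other strand).
Pdk1, chr2:71872974-71873273, + strand: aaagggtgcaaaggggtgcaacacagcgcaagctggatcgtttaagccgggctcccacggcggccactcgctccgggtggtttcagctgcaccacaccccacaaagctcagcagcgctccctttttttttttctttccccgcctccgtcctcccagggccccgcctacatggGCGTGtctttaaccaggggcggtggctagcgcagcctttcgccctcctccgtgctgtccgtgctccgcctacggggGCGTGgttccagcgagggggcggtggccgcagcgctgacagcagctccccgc
Bnip3, chr7:138909457-138909756, - strand: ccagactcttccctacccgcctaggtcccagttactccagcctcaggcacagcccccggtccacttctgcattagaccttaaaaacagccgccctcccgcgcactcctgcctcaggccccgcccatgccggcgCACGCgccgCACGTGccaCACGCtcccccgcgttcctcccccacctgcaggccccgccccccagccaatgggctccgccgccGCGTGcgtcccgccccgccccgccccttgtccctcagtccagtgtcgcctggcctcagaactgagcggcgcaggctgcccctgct
Ankrd37, chr8:45999801-46000100, - strand: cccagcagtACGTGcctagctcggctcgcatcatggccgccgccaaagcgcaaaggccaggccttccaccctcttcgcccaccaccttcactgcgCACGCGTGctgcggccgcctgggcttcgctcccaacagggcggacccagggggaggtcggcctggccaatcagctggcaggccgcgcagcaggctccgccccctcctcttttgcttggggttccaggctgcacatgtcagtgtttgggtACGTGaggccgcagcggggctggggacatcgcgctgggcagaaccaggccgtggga
P4ha2, chr11:54100674-54100973, + strand: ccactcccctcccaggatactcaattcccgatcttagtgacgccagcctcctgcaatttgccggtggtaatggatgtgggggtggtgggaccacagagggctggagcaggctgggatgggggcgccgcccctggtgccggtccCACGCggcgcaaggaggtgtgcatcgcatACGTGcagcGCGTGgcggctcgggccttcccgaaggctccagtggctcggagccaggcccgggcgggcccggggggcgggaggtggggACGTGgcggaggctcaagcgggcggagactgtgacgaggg
Egln3, chr12:54203825-54204124, - strand: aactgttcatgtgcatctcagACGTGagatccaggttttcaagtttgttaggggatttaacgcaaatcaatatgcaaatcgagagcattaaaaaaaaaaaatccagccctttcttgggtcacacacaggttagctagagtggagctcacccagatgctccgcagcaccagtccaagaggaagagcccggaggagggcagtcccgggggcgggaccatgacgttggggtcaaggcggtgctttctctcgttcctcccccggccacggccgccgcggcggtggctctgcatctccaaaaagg
Ldha, chr7:46845554-46845853, + strand: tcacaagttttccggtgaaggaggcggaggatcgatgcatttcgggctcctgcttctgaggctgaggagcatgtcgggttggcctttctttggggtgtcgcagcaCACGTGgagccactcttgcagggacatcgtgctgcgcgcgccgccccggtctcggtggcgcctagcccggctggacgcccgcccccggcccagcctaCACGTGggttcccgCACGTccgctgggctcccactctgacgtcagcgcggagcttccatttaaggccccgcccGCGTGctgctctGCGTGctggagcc

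The Bnip3 window held 5 such matches, with CACGTG read once on each strand, the Ankrd37 and P4ha2 windows 4 each, the Pdk1 window 2, the Egln3 window 1 and the Ldha window 7. Over all genes in the table, 46.7% of 27025 had either core in a promoter window, against 28 of the 31 genes described here (90.3%). For ACGTG alone the shares were 21.8% and 74.2%. Pdk1 and Ldha each have another start in the table, whose window is not shown. Either core was present in 8 of 8 genes that passed between wild type P5 and P3 and in 19 of 21 that did not. A match describes the letters in this window and is not a measured site. Epas1 and Ndrg1 are not in the table.

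The libraries agreed closely, with correlations between replicate arrays of 0.9961 to 0.9991. Tgif1 read 9.72 to 9.95 on the log2 scale in wild type P3, 10.06 to 10.18 in wild type P5 and 2.48 to 3.21 in Tgif1 null MEFs. All signals below are log2 values, the lowest value on any array was 2.23, and a gene is represented by its brightest probe-set unless another is named. A gene passed where limma's moderated test of a comparison gave it a p, adjusted over all probe-sets, under 0.05. All 12 fibroblast markers were above 2.5, and 5 of 8 endothelial, 2 of 7 epithelial, 2 of 14 macrophage and 4 of 17 striated muscle markers were under it on all arrays. Single genes on the lists of other cell types were brighter, with group means of 6.25 to 8.92 for Krt18, 9.55 to 9.89 for Krt19, 7.97 to 9.11 for Lyz2 and 3.39 to 9.62 for Actc1. Others on the same lists were low, with group means of 2.62 to 2.69 for Epcam, 2.23 to 2.32 for Cldn4, 2.76 to 3.77 for Krt8 and 2.89 to 2.98 for Adgre1. The bright genes alone therefore do not show which cells were present.

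With passage, the hypoxia genes moved and the glycolytic enzymes, on the whole, did not pass. Between wild type P5 and P3, 9 of 14 hypoxia genes passed, 7 higher and 2 lower, with a median log2 difference over the 14 of 0.42. Of 17 glycolysis genes, 1 passed, Pdk1, and their median was -0.01. Over all 18194 genes, 6.13% were called higher and 7.11% lower in this comparison, and over the 9931 genes with a mean signal above 4 these shares were 10.5% and 12.8%. The MEF cultures are bulk samples, in which fewer cells of a kind and less RNA per cell cannot be told apart.

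**Figure D1:**
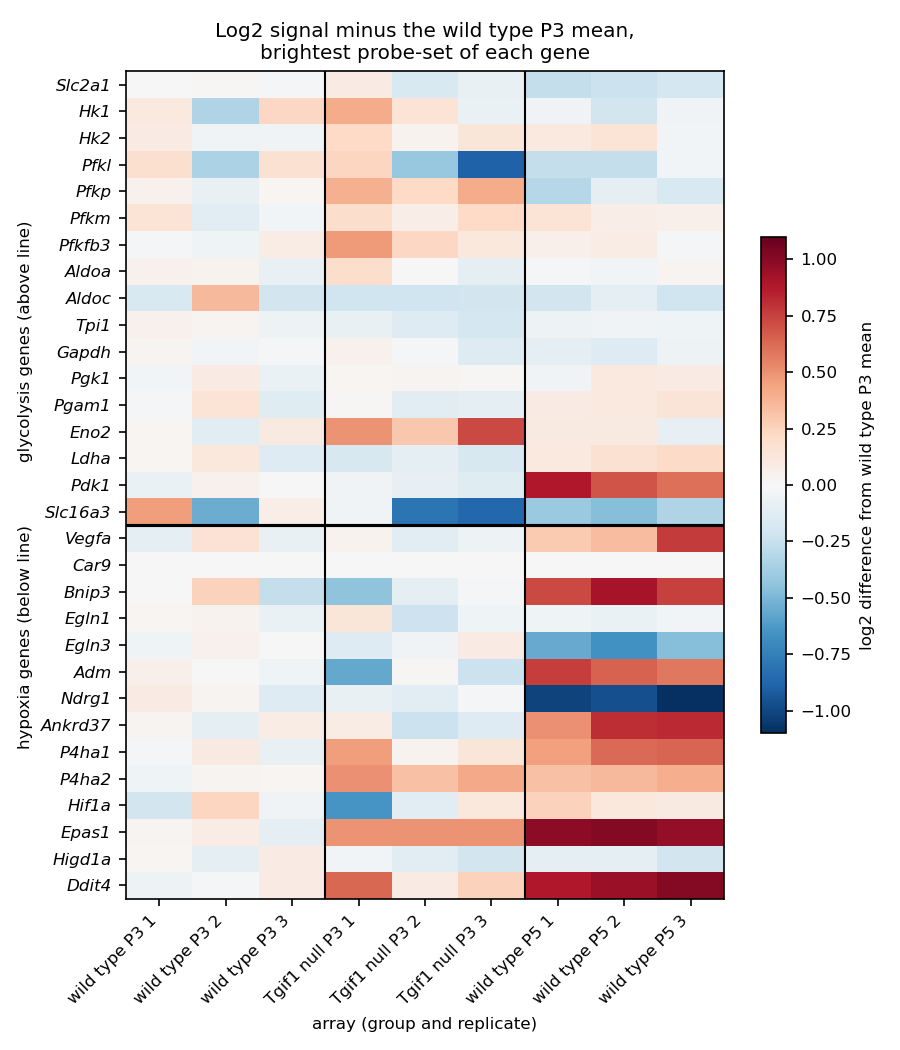
Each cell is the log2 signal of 1 gene on 1 array minus the mean of the 3 wild type P3 arrays, for the brightest probe-set of 17 glycolysis genes (above the line) and 14 hypoxia genes (below it); red is higher and blue lower. Pdk1, Bnip3, Adm, Ankrd37, Epas1 and Ddit4 are red and Egln3 and Ndrg1 blue on all 3 wild type P5 arrays.

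Taken array by array, the median shift of the 13 hypoxia genes with a mean above 4 from their wild type P3 mean was 0.32, 0.36 and 0.58 on the wild type P5 arrays. It lay between -0.11 and 0.05 on the 6 arrays of the other groups. For the 16 glycolysis genes above 4 it stayed between -0.09 and 0.14 on all 9 arrays. The map of the signals by array shows this P5 shift on each of the 3 P5 arrays.

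Among the hypoxia factors themselves, Epas1 rose and Hif1a did not pass. Epas1, which encodes the α subunit HIF-2α, read 6.43, 6.48 and 6.30 in wild type P3 and 7.38, 7.41 and 7.37 in wild type P5. The groups lay far apart, and the difference of 0.98 (SE 0.04, 1.98-fold, adjusted p = 0.000266) was the largest increase among the genes described here. The other Epas1 probe-set was at the lowest value, 2.23, on all arrays, so the Epas1 calls rest on the brighter probe-set alone. Hif1a, encoding HIF-1α, read 11.46, 11.90 and 11.62 in wild type P3 and 11.91, 11.78 and 11.76 in wild type P5. These values overlap, with a difference of 0.16 and a 95% interval from -0.35 to 0.67. A dimmer Hif1a probe-set differed by -0.08 (95% interval -0.30 to 0.14) and did not pass either.

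Bnip3 and Ddit4 rose. Bnip3, a mitochondrial protein that promotes the removal of mitochondria, read 8.96, 9.21 and 8.70 in wild type P3 and 9.69, 9.87 and 9.71 in wild type P5, with no overlap. Its difference was 0.80 (SE 0.16, 1.74-fold, adjusted p = 0.0323). Ddit4, also called Redd1, an inhibitor of the mTORC1 growth pathway, read 10.30, 10.35 and 10.45 against 11.24, 11.31 and 11.37. That is a difference of 0.94 (SE 0.13, 1.92-fold, adjusted p = 0.00956), and every P5 array was above every P3 array.

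Adm, P4ha1, P4ha2 and Ankrd37 rose as well. Adm encodes adrenomedullin, a vasodilator peptide, and read 11.23, 11.17 and 11.12 in wild type P3 and 11.93, 11.82 and 11.75 in wild type P5. It rose by 0.66 (SE 0.14, 1.58-fold, adjusted p = 0.0383). P4ha1 and P4ha2 encode catalytic subunits of collagen prolyl 4-hydroxylase. P4ha1 read 10.79, 10.91 and 10.73 against 11.26, 11.43 and 11.45, a rise of 0.57 (SE 0.12, 1.48-fold, adjusted p = 0.0364). P4ha2 read 9.71, 9.79 and 9.78 against 10.08, 10.12 and 10.16, a rise of 0.36 (SE 0.05, 1.28-fold, adjusted p = 0.00714). Ankrd37, an ankyrin repeat protein and a well-known Hif target, was dimmer, at 4.86, 4.72 and 4.91 in P3 and 5.33, 5.64 and 5.65 in P5, and rose by 0.71 (SE 0.12, 1.63-fold, adjusted p = 0.0171). In each of these 4 genes the P3 and P5 arrays did not overlap.

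Egln3 and Ndrg1, which low oxygen is known to induce, went the other way. Egln3, a prolyl hydroxylase of the Hif α subunits, read 6.85, 6.95 and 6.90 in wild type P3 and 6.35, 6.23 and 6.43 in wild type P5, and fell by 0.57 (SE 0.07, 1.48-fold, adjusted p = 0.00668). Ndrg1, a gene of differentiation and stress responses, read 8.65, 8.59 and 8.42 against 7.54, 7.59 and 7.38. Its fall of 1.05 (SE 0.08, 2.07-fold, adjusted p = 0.00109) was the largest change in size in the list. The dot plot of the signals shows the P5 arrays of both genes below all P3 arrays.

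**Figure D2:**
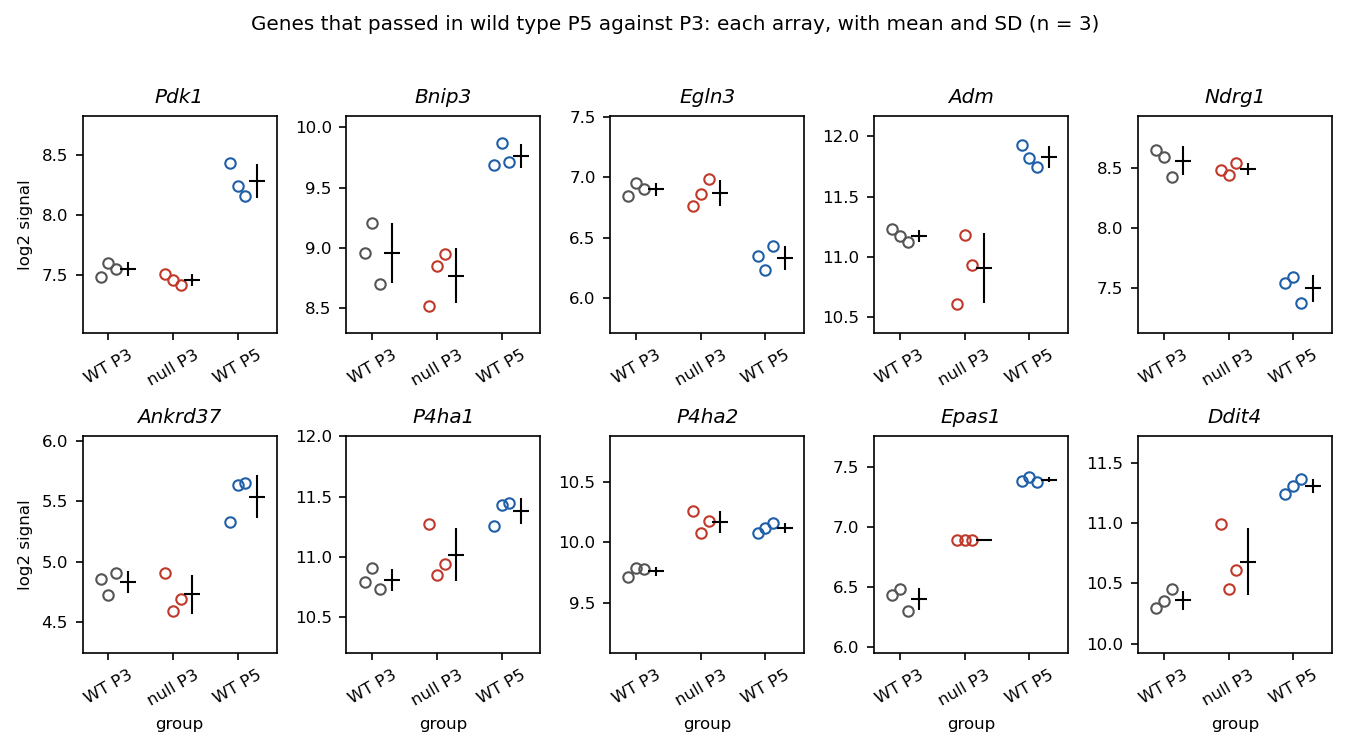
Log2 signal on each array (open circles, 3 per group) of the 10 genes that passed between wild type P5 and wild type P3, with the mean and SD (n = 3) beside them; WT is wild type and every panel spans the same range of log2 units. In Epas1 and P4ha2 the Tgif1 null circles lie above the wild type P3 circles, while in Pdk1, Egln3 and Ndrg1 they lie near them.

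Of the 5 hypoxia genes that did not pass, Vegfa, the angiogenic growth factor, read 8.04, 8.30 and 8.06 in wild type P3 and 8.43, 8.48 and 8.91 in wild type P5. The groups did not overlap, with a difference of 0.47 (SE 0.14, adjusted p = 0.12, 95% interval 0.13 to 0.82). Vegfa passed after probe-sets under a signal of 4 (adjusted p = 0.0289) or 6 (adjusted p = 0.0227) were removed. The dimmer Vegfa probe-set differed by 0.11 (95% interval -0.02 to 0.25) and did not pass. Egln1, the main Hif prolyl hydroxylase, differed by -0.04 (95% interval -0.25 to 0.17) and Higd1a, a mitochondrial membrane protein, by -0.15 (-0.30 to 0.01). Car9, a carbonic anhydrase known as a marker of hypoxia, was at the lowest value, 2.23, on all 9 arrays, so that a decrease could not be seen.

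The passage calls rest on small groups. In the fits without wild type P3 replicate 1, wild type P5 replicate 2 or wild type P5 replicate 3, 5 hypoxia genes passed. These were Egln3, Ndrg1, P4ha2, Epas1 and Ddit4. Bnip3, Adm, Ankrd37 and P4ha1 no longer passed, their differences being 0.53 to 0.92 and their adjusted p at most 0.132 over all alternatives. Adm and P4ha1 lost the call without any 1 of the wild type arrays or without Tgif1 null replicate 3. Of the alternatives, 10 of 19 lost the call for Bnip3, Adm and P4ha1 each, and 6 of 18 for Ankrd37. With a moderated F test at p under 0.0001 and a difference of at least 0.5, 2 passed (Ndrg1 and Epas1), and with a robust prior that follows the signal level 3 did (Ndrg1, Epas1 and Ddit4). Proliferation markers moved with passage too: 12 of 13 fell between wild type P5 and P3, their summed linear signal being 36800 to 38100 in P3 and 23500 to 24700 in P5. Of 17 striated muscle markers 7 fell and 1 rose (Actc1 fell by 3.93 and Acta1 rose by 1.60), with Myod1, Myf5, Myf6 and Ckm under 2.5 on all arrays and sums of 2440 to 2470 in P3 and 4480 to 5440 in P5, Acta1 included. Of 7 epithelial markers 1 passed, Krt18, which fell by 2.66, with Cdh1 and Cldn7 under 2.5 on all arrays and sums of 1380 to 1540 in P3 and 764 to 905 in P5. Of 12 fibroblast markers 4 rose, with sums of 132000 to 134000 and 157000 to 166000. The part of these shifts in the results was not tested.

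Pdk1 was the 1 glycolysis gene to pass with passage. It encodes pyruvate dehydrogenase kinase, which switches off pyruvate dehydrogenase. Pdk1 read 7.48, 7.60 and 7.55 in wild type P3 and 8.43, 8.24 and 8.16 in wild type P5, a rise of 0.73 (SE 0.07, 1.66-fold, adjusted p = 0.00276). All P5 arrays were above all P3 arrays, and the call held under each of the 19 other settings tried.

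For most enzymes of the pathway itself the intervals were narrow. Ldha, lactate dehydrogenase A, read 13.68, 13.78 and 13.52 in wild type P3 and 13.77, 13.83 and 13.87 in wild type P5, with a difference of 0.16 (95% interval -0.00 to 0.33, adjusted p = 0.276). Pgk1, phosphoglycerate kinase, read 13.35, 13.47 and 13.31 against 13.34, 13.49 and 13.47, a difference of 0.05 (-0.08 to 0.18). The values of both genes overlapped between the groups. Slc2a1, the glucose transporter Glut1, read 12.50, 12.51 and 12.48 against 12.24, 12.26 and 12.31, a difference of -0.23 (95% interval -0.38 to -0.07, adjusted p = 0.0933). Its P5 arrays were all below its P3 arrays, and the gene passed in the fit without Tgif1 null replicate 1 (adjusted p = 0.0106), which leaves the wild type arrays as they are and changes only the estimate of the spread.

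The other glycolysis genes differed by -0.40 (Slc16a3, the lactate exporter Mct4) to 0.11 (Pgam1, phosphoglycerate mutase) between wild type P5 and P3. For 12 of the 15 glycolysis genes that did not pass and had a mean above 4, the 95% interval lay within 0.5 of 0 on the log2 scale. The exceptions were Hk1, Pfkl and Slc16a3, whose replicates spread more. Aldoc was near the lowest values, with means of 3.46 to 3.67 in the 3 groups.

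**Figure D3:**
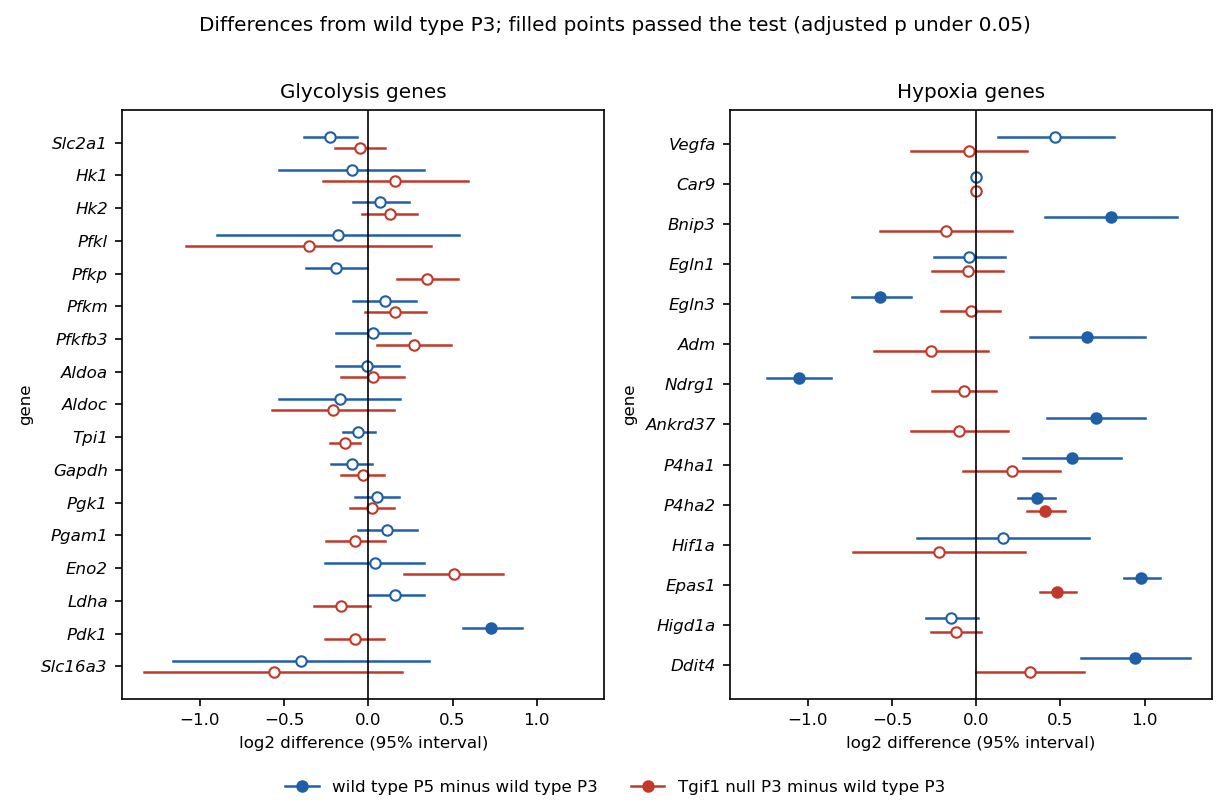
Log2 difference from wild type P3 of the brightest probe-set of each gene, with its 95% interval, for wild type P5 (blue) and Tgif1 null P3 (red); filled points passed the test. Among glycolysis genes the 1 filled point is Pdk1 in wild type P5, and among hypoxia genes 9 blue and 2 red points are filled.

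In Tgif1 null MEFs at P3, few of these genes differed from wild type P3. Of 14 hypoxia genes 2 passed, Epas1 and P4ha2, both higher, and the median of the 14 was -0.04. Of 17 glycolysis genes 0 passed by limma, 4 were at an unadjusted p under 0.05 (15.2% of all genes were), and the median was -0.03. Over all genes 1.51% were called higher and 1.07% lower in this comparison, and over genes with a mean above 4 these shares were 2.61% and 1.91%. This comparison uses the same wild type P3 arrays as that of P5 with P3.

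Epas1 read 6.89 on each of the 3 Tgif1 null arrays, above all wild type P3 arrays and below all wild type P5 arrays. It rose by 0.48 over wild type P3 (SE 0.04, 1.40-fold, adjusted p = 0.00867). The 3 deposited null values were equal to the last digit, as happened for 1.48% of the probe-sets with a mean above 4 in that group, and that spread of 0.00 entered the test. In a fit of the Tgif1 null and wild type P3 arrays alone the adjusted p was 0.0766.

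P4ha2 read 10.26, 10.08 and 10.18 in Tgif1 null MEFs, all above the wild type P3 arrays, and rose by 0.41 (SE 0.05, 1.33-fold, adjusted p = 0.0156). It lay near its wild type P5 level, with a difference from P5 of 0.05 (95% interval -0.06 to 0.17). The P4ha2 call was lost, and the count of hypoxia genes was then 1, without Tgif1 null replicate 3, wild type P3 replicate 1 or wild type P3 replicate 3, and its difference was 0.37 to 0.46 over all alternatives.

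Among the other hypoxia genes in the null, Ddit4 read 10.99, 10.45 and 10.61. Its difference from wild type P3 was 0.32 (95% interval -0.00 to 0.64, adjusted p = 0.501). Hif1a read 11.01, 11.54 and 11.78, a difference of -0.22 (-0.73 to 0.29), and Vegfa 8.18, 8.02 and 8.08, a difference of -0.04 (-0.39 to 0.30). Both overlapped wild type P3. For 6 of the 11 hypoxia genes that did not pass and had a mean above 4, the interval lay within 0.5 of 0, and it reached beyond for Adm, Bnip3, Ddit4, Hif1a and P4ha1.

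Of the glycolysis genes, Pfkp, the platelet form of phosphofructokinase, read 9.07, 8.90 and 9.09 in Tgif1 null MEFs and 8.73, 8.60 and 8.70 in wild type P3. The groups did not overlap, with a difference of 0.35 (SE 0.07, adjusted p = 0.102). Eno2, the neuronal enolase, differed by 0.51 (95% interval 0.21 to 0.80, adjusted p = 0.143), Pfkfb3, which makes the activator of phosphofructokinase, by 0.27 (0.05 to 0.49) and Tpi1, triosephosphate isomerase, by -0.14 (-0.23 to -0.05). After probe-sets under a signal of 4 were removed, Pfkp (adjusted p = 0.0402) and Eno2 (adjusted p = 0.0365) passed.

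Ldha read 13.48, 13.55 and 13.48 in the null, a difference from wild type P3 of -0.16 (95% interval -0.32 to 0.01). Pgk1 read 13.40, 13.41 and 13.39 (0.02, interval -0.11 to 0.15) and Slc2a1 12.59, 12.33 and 12.42 (-0.05, interval -0.20 to 0.10). For 11 of the 16 glycolysis genes with a mean above 4 the interval lay within 0.5 of 0. Markers of other cells moved with this comparison: 11 of 17 striated muscle markers rose, with Myod1, Myf5, Myf6 and Ckm under 2.5 on all arrays, and their summed linear signal was 4850 to 6830 in the null and 2440 to 2470 in wild type P3. Without Acta1, which did not pass in this comparison, the sum was 2980 to 4860 in the null, 844 to 1010 in wild type P3 and 307 to 335 in wild type P5. Of 14 macrophage markers 1 passed, Ctss, which was higher, while Ptprc and Itgam were under 2.5 on all arrays. At an unadjusted p under 0.05 were 9 of the 14, against 15.2% of all genes. The 8 with a mean above 4 were all higher in the null, with a median of 1.02. The summed macrophage signal was 870 to 1340 in the null and 541 to 588 in wild type P3. The part of these muscle and macrophage markers in the results was not tested.

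Set directly against wild type P5, Tgif1 null MEFs differed in many of the hypoxia genes. Of 14 hypoxia genes 7 passed, 5 lower in the null (Bnip3, Adm, Ankrd37, Epas1 and Ddit4) and 2 higher (Egln3 and Ndrg1), with a median of -0.37. Of 17 glycolysis genes 3 passed, Ldha and Pdk1 lower and Pfkp higher, with a median of 0.04. Over all genes 6.08% were called higher and 5.33% lower in the null, and 10.7% and 8.91% over genes with a mean above 4. Both genotype and passage differ between these groups, and their parts cannot be told apart in this comparison. The wild type P5 arrays enter this comparison and that of P5 with P3, so the calls are not independent of those above. Other markers moved with it too: in the null 12 of 17 striated muscle markers were higher and 1 lower, 6 of 14 macrophage markers, 7 of 13 proliferation markers, 1 of 8 endothelial markers and 1 of 7 epithelial markers (Krt18, by 2.67) were higher, and 5 of 12 fibroblast markers were lower. The summed signals were 4850 to 6830 against 4480 to 5440 for muscle, 870 to 1340 against 409 to 463 for macrophage, 30800 to 31900 against 23500 to 24700 for proliferation, 137 to 191 against 124 to 137 for endothelial, 1260 to 1520 against 764 to 905 for epithelial and 129000 to 143000 against 157000 to 166000 for fibroblast markers, and their part in the results was not tested.

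For Adm, Bnip3 and Ankrd37 the null arrays overlapped wild type P3 and lay below all wild type P5 arrays. Adm read 10.61, 11.18 and 10.93 in the null, 0.93 below wild type P5 (SE 0.14, 1.90-fold, adjusted p = 0.0134). Bnip3 read 8.52, 8.85 and 8.95, and fell by 0.98 (SE 0.16, adjusted p = 0.018), and Ankrd37 read 4.91, 4.59 and 4.69 and fell by 0.81 (SE 0.12, adjusted p = 0.0123). The mean of Ddit4 in the null, 10.68 ± 0.28 (SD, n = 3), lay between those of both wild type groups, 0.62 below P5 (SE 0.13, adjusted p = 0.0446), a call lost without any 1 of the wild type arrays or Tgif1 null replicate 2 or 3, with a difference of -0.78 to -0.51 over all alternatives.

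Ndrg1 read 8.48, 8.44 and 8.54 in the null, 0.99 above wild type P5 (SE 0.08, 1.98-fold, adjusted p = 0.00155). Egln3 read 6.76, 6.86 and 6.99, 0.54 above wild type P5 (SE 0.07, adjusted p = 0.00918). Against wild type P3 neither gene passed in the null, with differences of -0.07 for Ndrg1 and -0.03 for Egln3. Epas1 was 0.50 lower than in wild type P5 (SE 0.04, adjusted p = 0.00208), so that its 3 groups stood in the order wild type P3, Tgif1 null P3, wild type P5, each step passing the test. The equal null values entered both steps. Of 19 alternatives, 3 lost the call against wild type P3 and 2 that against wild type P5. Vegfa differed by -0.52 (95% interval -0.86 to -0.17, adjusted p = 0.101) and passed under 3 of the alternatives (adjusted p = 0.0183 to 0.0475). P4ha1, at 11.27, 10.85 and 10.94 in the null, overlapped wild type P5 and differed from it by -0.36 (95% interval -0.65 to -0.07, adjusted p = 0.166).

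Among glycolysis genes Pdk1 read 7.51, 7.46 and 7.42 in the null, and fell by 0.82 from the P5 level (SE 0.07, 1.76-fold, adjusted p = 0.0022). Ldha fell by 0.32 (SE 0.07, 1.25-fold, adjusted p = 0.0457), a call lost without any 1 of the null or wild type P5 arrays or wild type P3 replicate 1, with a difference of -0.35 to -0.30 over all alternatives. Pfkp rose by 0.53 (SE 0.07, 1.45-fold, adjusted p = 0.0103). The count of hypoxia genes in this comparison was 4 without wild type P5 replicate 1 (Egln3, Ndrg1, Ankrd37 and Epas1) and 3 without wild type P5 replicate 2 (Egln3, Ndrg1 and Epas1).

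Several of these genes had more than 1 probe-set, which allowed the calls to be compared within a gene. For Ndrg1, 3 probe-sets fell with passage, by 1.05, by 0.73 (adjusted p = 0.00645) and by 0.64 (adjusted p = 0.0284), and the other 2 were near the lowest values. For Pdk1, 2 probe-sets rose, the brightest by 0.73 and a dimmer by 0.98 (adjusted p = 0.00988), while another differed by 0.38 (95% interval 0.07 to 0.68). Both P4ha1 probe-sets rose, the dimmer by 0.96 (adjusted p = 0.0474). The dimmer Adm probe-set differed by 0.57 (adjusted p = 0.0926), in the direction of the brighter.

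Higd1a probe-sets differed with passage. The brightest differed by -0.15 (95% interval -0.30 to 0.01) and did not pass. A dimmer probe-set read 6.60, 6.11 and 6.54 in wild type P3 and 7.29, 7.38 and 7.20 in wild type P5, and rose by 0.88 (SE 0.13, adjusted p = 0.0108). The dimmest was higher in P5 by 0.46 (95% interval 0.18 to 0.74) without passing (adjusted p = 0.0659). With the mean of all its probe-sets, the gene passed as higher by 0.40 (adjusted p = 0.033). The dimmer Egln3 probe-set, with values of 3.17 to 4.21, differed by 0.14 (95% interval -0.35 to 0.63) where the brighter fell. Of the 3 Gapdh probe-sets, a control set placed at the 3′ end fell by 0.16 (adjusted p = 0.0498), and the other 2 differed by -0.10 and -0.18 without passing. The 3′ minus 5′ difference of Gapdh, a sign of RNA quality, was -0.08 to 0.04 over the 9 arrays, and that of Actb 0.45 to 0.48.

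**Figure D4:**
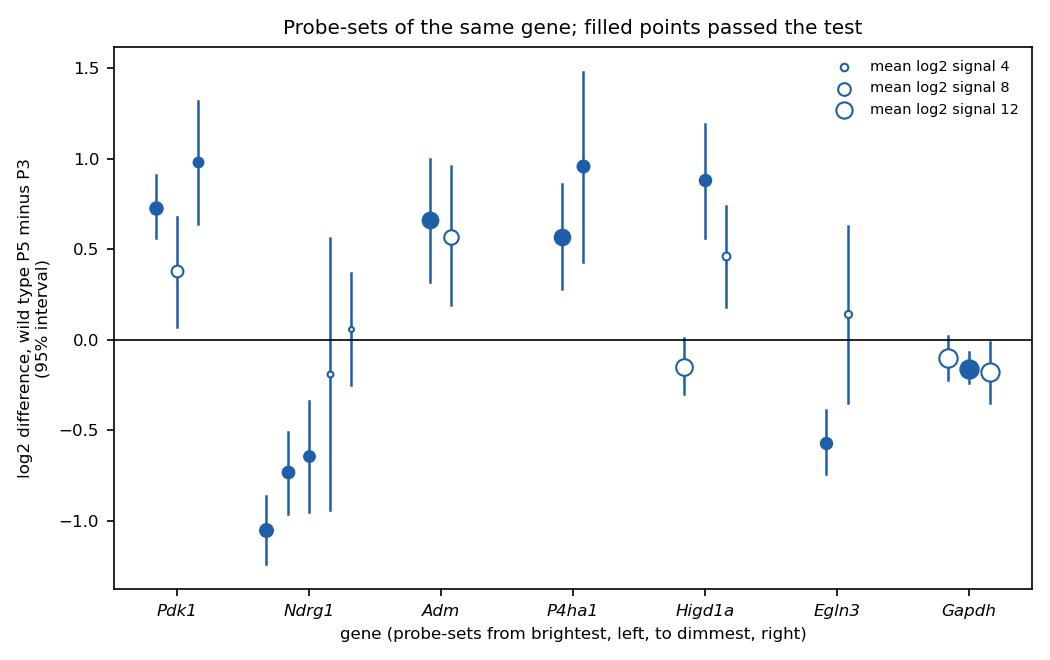
Log2 difference between wild type P5 and wild type P3 with its 95% interval for each probe-set of 7 genes, those with a mean under 2.5 left out; larger circles are brighter probe-sets and filled circles passed the test. The Ndrg1 points that passed lie below 0, and the Higd1a points lie on both sides of it.

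Genes around glycolysis, from lists of the same pathways, were counted in the same way. Of 35 further genes of glycolysis and pyruvate use, 5 rose and 1 fell between wild type P5 and P3. The shares over all genes were 6.13% higher and 7.11% lower. Pdk4, a sister kinase of Pdk1, read 5.79, 5.68 and 6.01 in wild type P3, 7.64, 7.16 and 7.30 in wild type P5 and 6.70, 7.27 and 7.14 in the null. It rose by 1.54 with passage (SE 0.19, adjusted p = 0.00632) and by 1.21 in the null over wild type P3 (adjusted p = 0.0442). Slc2a3, the glucose transporter Glut3, fell by 1.45 with passage (adjusted p = 0.00729), from 7.73, 7.56 and 7.75 to 6.05, 6.23 and 6.41, and was at 8.21, 7.53 and 7.65 in the null. Slc16a7, a monocarboxylate transporter, rose by 0.97 (adjusted p = 0.0242) and Pcx, pyruvate carboxylase, by 0.51 (adjusted p = 0.036).

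In the null against wild type P3, 2 of these 35 genes passed, Pdk4 and Pcx, the latter higher by 0.79 (adjusted p = 0.0264). Among all genes 1.51% were called higher and 1.07% lower there. Against wild type P5, 1 was higher, Slc2a3, and 4 were lower, among them G6pc3, a glucose-6-phosphatase, which fell by 0.89 (adjusted p = 0.00526). The shares of all genes against wild type P5 were 6.08% higher and 5.33% lower. Pyruvate kinase itself, Pkm, did not pass in any of the 3 comparisons.

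In the pentose phosphate pathway, which branches from glucose-6-phosphate, 1 of 9 genes rose and 2 fell with passage. Pgd fell by 0.27 (adjusted p = 0.00645) and Taldo1 by 0.27 (adjusted p = 0.0211), enzymes of the cytoplasmic pathway, while H6pd, an enzyme of the endoplasmic reticulum, rose by 0.48 (adjusted p = 0.0197). In the null against wild type P3, 1 of the 9 passed, Tkt, transketolase, which fell by 0.27 (adjusted p = 0.0468). Of 14 glycogen genes 1 rose with passage, Gyg, which primes glycogen synthesis, by 0.50 (adjusted p = 0.0476), and 1 fell in the null, Pygb, a glycogen phosphorylase, by 0.51 (adjusted p = 0.013). Beside these counts, 6.13% of all genes were called higher and 7.11% lower with passage. For the null against wild type P3 these shares were 1.51% and 1.07%.

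Of 17 further genes of the Hif machinery, such as Arnt, Vhl and Egln2, 0 passed between wild type P5 and P3 by limma. Hif1a, Epas1, Egln1 and Egln3, described above, are not among them. Of the 17, 3 were at an unadjusted p under 0.05, against 26.5% of all genes. In the null against wild type P3, 1 passed, Arnt2, a relative of Arnt, which fell by 0.56 (adjusted p = 0.0135), beside 1.07% of all genes called lower. Of 37 further genes listed as Hif targets, 30 had a mean signal above 4. With passage, 9 of the 37 rose and 3 fell, with a median of 0.09. Over all genes 6.13% were called higher and 7.11% lower, and over genes with a mean above 4 these shares were 10.5% and 12.8%. At an unadjusted p under 0.05 were 15 of the 37, against 26.5% of all genes. The smallest p-values were those of Hmox1, heme oxygenase 1, up by 1.22 (adjusted p = 0.000389), Vldlr, a lipoprotein receptor, up by 1.06 (adjusted p = 0.000587), Bhlhe40, a transcriptional repressor, up by 1.14 (adjusted p = 0.00107), and Igfbp3, an IGF binding protein, up by 1.52 (adjusted p = 0.0027).

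In the null against wild type P3, 3 of the 37 rose, Vldlr by 0.62 (adjusted p = 0.0123), Ddit3 by 0.73 (adjusted p = 0.0248) and Bhlhe40 by 0.51 (adjusted p = 0.0497). Among all genes 1.51% were called higher there. Igfbp3 read 7.48, 7.18 and 7.44 in the null, 7.53, 7.66 and 7.39 in wild type P3 and 9.16, 9.22 and 8.76 in wild type P5. Hmox1 read 9.92, 10.04 and 9.89 in the null, 9.55, 9.70 and 9.74 in wild type P3 and 10.91, 10.83 and 10.90 in wild type P5. Against wild type P5, 3 of the 37 were higher and 4 lower in the null, the lower ones being Hmox1, Igfbp3, Bhlhe40 and Vldlr. The shares of all genes were 6.08% higher and 5.33% lower. Many of these targets also answer to other signals, and the list was chosen by name, with no measure of Hif binding in these cells.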

How the data were processed

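RNA of 9 cultures, 3 per group, was hybridized to Affymetrix MOE430_2.0 arrays. Log2 signals of 45101 probe-sets were deposited by the authors. They were computed with GCRMA, an algorithm that subtracts background estimated from probe sequence, equalizes the arrays by quantile normalization and condenses the probes of a set into 1 value. Processing notes of the submitters list limma as well, and versions were not given in the sources used here. Precision is limited by the number of arrays.

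Here the log2 values were used unchanged. The 3 groups were fitted in 1 model with limma 3.58.1 (R 4.3.3, default eBayes), and each comparison was adjusted by Benjamini-Hochberg over all probe-sets. The procedure was tested on simulated data. Symbols came from gene numbers (GRCm38.p6), and 34958 probe-sets had exactly 1.

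Genes and lists were chosen with earlier results of these data known. The rule gave values per array for Ldha, Pgk1, Vegfa, Slc2a1, Hif1a, Epas1 and each gene that passed against wild type P3, names where probe-sets disagreed, and up to 4 genes of smallest p from each further list. Other genes given with values, such as Pfkp and Eno2, were chosen after their values were seen. Alternatives were other filters, priors, scalings and probe-set rules, a replicate block, 2 groups alone, and each array left out.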

Additional observations from a re-analysis of the deposited data

How the results depend on the processing

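Of the 22 calls of single genes, over 19 alternatives and 416 values, 317 were kept, 99 were lost and 0 changed direction. Between wild type P5 and P3, Pdk1, Ndrg1 and Epas1 passed under every alternative, and Pdk1 and Ndrg1 did so between the Tgif1 null and wild type P5. With the moderated F test at p under 0.0001 and a difference of at least 0.5, 0 hypoxia genes passed for the null against wild type P3, 2 for P5 against P3 and 1 for the null against P5, and 1 glycolysis gene for the null against P5. With a prior that both follows the signal level and is estimated robustly, these counts were 0, 3, 3 and 1. With only the 2 groups compared, 0 hypoxia genes passed for the null against wild type P3 and 3 for the null against P5, and 2 glycolysis genes passed for P5 against P3 (Slc2a1 and Pdk1). The count of glycolysis genes for the null against wild type P3 was 2 with signals above 4 on at least 3 arrays and 1 above 6, and that for P5 against P3 was 2 above 6 and 2 with the probe-set of smallest p. The causes were not tested.

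With replicate number as a block, 1 hypoxia gene passed for the null against wild type P3, 5 for P5 against P3 and 3 for the null against P5, and 1 glycolysis gene for the null against P5. Whether the numbers pair the samples cannot be settled from deviations of 3 arrays around their own group mean. Same-numbered arrays of the null and wild type P3 correlated at 0.395, 0.197 and -0.491 in these deviations. Those of the null and P5 did so at -0.203, 0.0972 and -0.154, and those of P3 and P5 at -0.0546, 0.159 and 0.14. Not every array correlated best with its own number, although replicates 2 and 3 did between P3 and P5. Leaving out 1 array at a time gave 1 to 2 hypoxia genes for the null against wild type P3, 5 to 9 for P5 against P3 and 3 to 8 for the null against P5, and 0 to 0, 1 to 2 and 2 to 3 glycolysis genes. Where this left a group with 2 arrays, the spread was pooled over the groups. Signals near the lowest value, as for Car9 and Aldoc, limit what a decrease can show.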

Other observations

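Tgif1 null replicate 1 was the lowest or highest of the 3 null arrays for several of these genes, which were picked after their values were seen. It was lowest of the 3 for Hif1a (11.01, against 11.54 and 11.78), Adm (10.61, against 11.18 and 10.93) and Bnip3 (8.52, against 8.85 and 8.95), and highest for Ddit4 (10.99, against 10.45 and 10.61), P4ha1 (11.27, against 10.85 and 10.94) and Pfkfb3 (6.42, against 6.18 and 6.07). The same array was highest in the summed signal of the macrophage markers with a mean above 4 (1230, against 807 and 840) and of the muscle markers (6660, against 4860 and 4740). Any link between these values was not tested. Without it, 8 hypoxia genes passed between the null and wild type P5, P4ha1 being added with a difference of -0.49 (adjusted p = 0.035).

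Slc16a3, the lactate exporter, and Pfkl, the liver form of phosphofructokinase, varied widely within the P3 groups. Slc16a3 read 5.20, 4.19 and 4.81 in wild type P3 and 4.70, 3.94 and 3.88 in the null, but 4.33, 4.27 and 4.41 in wild type P5. Pfkl read 8.91, 8.38 and 8.90, then 8.97, 8.31 and 7.84, and 8.47, 8.47 and 8.70 in the same order of groups. Both Pfkl probe-sets above the lowest values showed this spread, the dimmer reading 7.48, 6.90 and 7.55 in wild type P3.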
